A study of Sus scrofa domesticus with 2 samples.

Results

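The WT1 and IGFBP5 collagen-high cells, here called WT1/IGFBP5 cells, were a small set of cultured pig lung cells rich in type I collagen mRNA. They numbered 53 of the 5682 lung cells within the limits on cells, of 5946 cells deposited for the lung and of 7131 cells in the series. They were chosen by measured values. A cell had more than 200 and fewer than 5000 detected genes, under 30% of its UMIs (unique molecular identifiers, 1 per captured mRNA molecule) from the 13 mitochondrial genes, and at least 20 UMIs of COL1A1 plus COL1A2. Among the 335 cells that met these limits, the collagen-high cells, the WT1/IGFBP5 cells were those with more UMIs of IGFBP5 plus WT1 than of ACTA2 plus ACTG2. The levels of these 6 genes therefore describe the choice and are no finding. The comparison was with the other 282 collagen-high cells of the same library, and the 5347 collagen-low cells, which had fewer than 20 UMIs of COL1A1 plus COL1A2, gave the level of free RNA and of the endothelial majority.

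The study profiled ECs from the aorta and from 1 leaf (lobe) of lung of the domestic pig (Sus scrofa domesticus) by droplet-based scRNA-seq, with 1 library per tissue. The lung was rinsed through its vessels, filled with collagenase for 30 min at body temperature, and the released cells were cultured in medium with 10% fetal calf serum before capture. The labels named no sort for endothelial cells, and gave no passage or number of animals. With 1 lung library, cells are not replicates, so levels are given with counting intervals and no difference was tested.

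WT1 is a zinc finger transcription factor made in the mesothelium, in the developing heart and kidney and in some stromal cells, and in the embryonic lung it marks the mesothelial layer from which part of the mesenchyme is known to derive. IGFBP5 is a secreted protein that binds insulin-like growth factors and the extracellular matrix, and COL3A1 encodes the chain of type III collagen, which is laid down with type I collagen in the fibrils of distensible tissues such as lung and vessel wall. The actins ACTA2 and ACTG2 belong to the contractile apparatus of smooth muscle cells and myofibroblasts.

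The WT1/IGFBP5 cells made up 0.933% of the lung cells within the limits (95% Clopper-Pearson interval 0.699 to 1.22%) and 15.8% of the collagen-high cells (12.1 to 20.2%). All intervals, here and for levels, cover counting error only. The WT1/IGFBP5 cells held 629672 UMIs, with a lowest, median and highest cell of 656, 11271 and 28418 UMIs and a median of 3177 detected genes. The other collagen-high cells held 3222421 UMIs with a median of 10658.5, and the collagen-low cells 52270707 UMIs with a median of 9371. Mitochondrial genes gave a median of 6.82% of UMIs in the WT1/IGFBP5 cells, 6.04% in the other collagen-high cells and 5.39% in the collagen-low cells. Depth and mitochondrial share were therefore alike in the groups compared. The lung and aorta libraries had 5 cell barcodes in common, of which 0 belonged to WT1/IGFBP5 cells.

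The values that chose the cells ran close to the threshold in many of them. IGFBP5 plus WT1 exceeded ACTA2 plus ACTG2 by a median of 4 UMIs and at most 28, by exactly 1 UMI in 8 cells and by at least 5 in 25. Just outside lay 28 collagen-high cells with equal sums, 18 of them with 0 UMIs of all 4 genes, and 17 cells that fell short by 1 UMI. The sum of COL1A1 and COL1A2 ran from 20 through a median of 164 to 398 UMIs, and 1 WT1/IGFBP5 cell had fewer than 40. Among the collagen-low cells, 6 had 10 to 19 UMIs of both collagens and 1 of these met the rest of the rule. Few cells thus lay just under the collagen limit, while many lay near the split by actins.

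**Figure D1:**
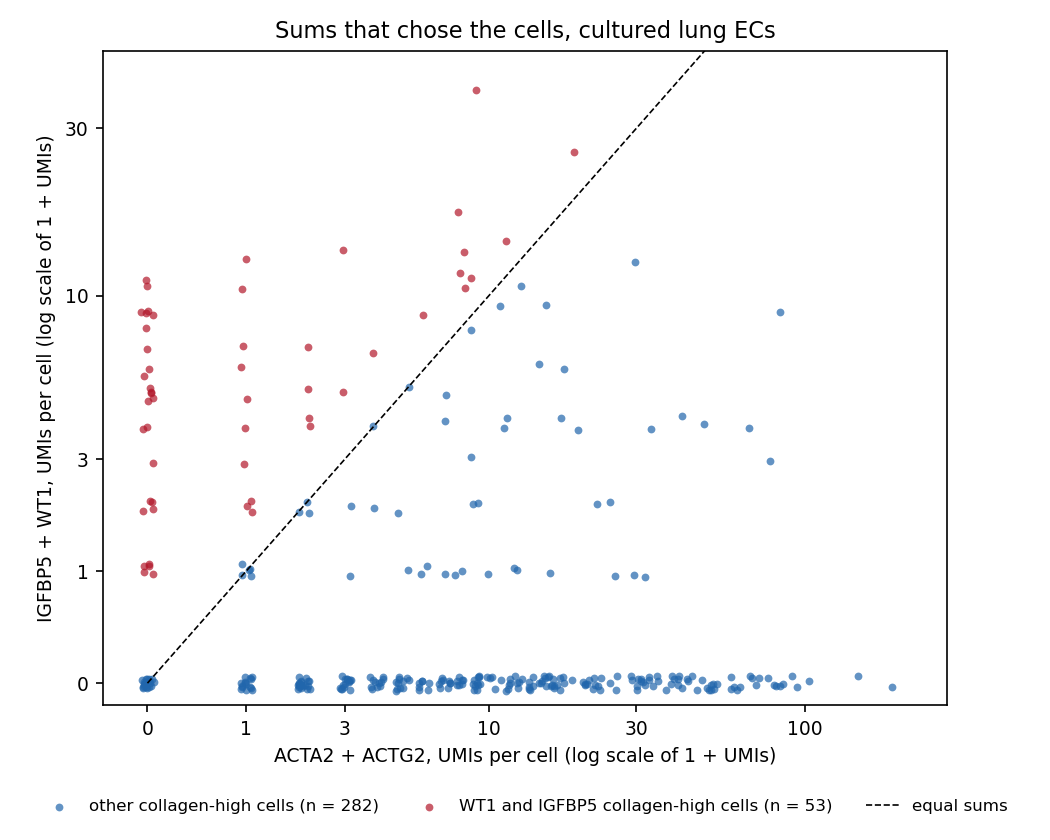
UMIs per cell of IGFBP5 plus WT1 (vertical axis) against ACTA2 plus ACTG2 (horizontal axis), both as log of 1 plus UMIs with a small random shift of each point, for the 53 WT1/IGFBP5 cells (red) and the 282 other collagen-high cells (blue). Points above the dashed line of equal sums were chosen, and 27 of the 53 had 0 UMIs of ACTA2 and ACTG2.

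WT1, on chromosome 2 (28411467 to 28456007, Sscrofa11.1, RefSeq), had 68 UMIs in the WT1/IGFBP5 cells, with a lowest, median and highest cell of 0, 1 and 7. This came to 108 CPM (UMIs of the gene per 1000000 UMIs of the group; 95% Poisson interval 83.9 to 137), against 17.7 CPM in the other collagen-high cells and 0.0957 CPM in the collagen-low cells. A WT1 UMI was seen in 60.4% of the WT1/IGFBP5 cells, 10.6% of the other collagen-high cells and 0.0935% of the collagen-low cells, at median depths of 11271, 10658.5 and 9371 UMIs. With cells brought to an equal 5900 UMIs by random removal (thinning), these shares were 38.8, 6.42 and 0.0624%. IGFBP5, on chromosome 15 (118861816 to 118877787), stood at 499 CPM (445 to 557) against 33.8 and 2.22 CPM, with 0, 4 and 36 UMIs in the lowest, median and highest WT1/IGFBP5 cell. It was seen in 94.3% of the WT1/IGFBP5 cells, 15.6% of the others and 1.14% of the collagen-low cells, and in 89.8, 12.1 and 0.728% after thinning. The choice set these levels, and the name fits unevenly: 29 of the 53 cells had UMIs of both genes, 21 of IGFBP5 alone and 3 of WT1 alone. The actins were low by choice, with 176 CPM of ACTA2 against 1356 in the other collagen-high cells, and 3 UMIs of ACTG2 against 238 CPM.

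The marker COL3A1, which the rule did not use, was seen in all 53 WT1/IGFBP5 cells. Its lowest, median and highest cell had 2, 12 and 48 UMIs, while the other collagen-high cells had 0, 2 and 40. Ranges overlapped, and the median WT1/IGFBP5 cell lay well above the median of the others. The level was 1099 CPM (1019 to 1184) against 386 CPM, 2.85-fold higher (2.59 to 3.13), and 1.42 CPM in the collagen-low cells. The share of cells with a COL3A1 UMI was 76.2% in the other collagen-high cells and 1.31% in the collagen-low cells, and 100, 61.5 and 0.707% in the 3 groups after thinning. COL3A1 took no part in the rule, but it was given as a marker of these cells with earlier results of these data known. Its higher level is therefore a description and no independent support for the choice.

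The question whether other genes separate the same cells was addressed by clustering the lung cells without the 6 rule genes. The 12 clusters included 2 collagen-high ones. The smaller held 50 WT1/IGFBP5 cells, 68 other collagen-high cells and 2 collagen-low cells, and the larger held 1 WT1/IGFBP5 cell, 211 others and 3 collagen-low cells. The remaining 2 WT1/IGFBP5 cells lay in clusters of collagen-low cells. WT1 took no part in the clustering, yet its UMIs in both clusters fell wholly in the smaller one, in 62 of 118 collagen-high cells against 0 of 212 in the larger, where 0 UMIs set a limit of 1.29 CPM. Of the 62 cells, 32 were WT1/IGFBP5 cells and 30 were not, because their actin UMIs were at least as many. IGFBP5 UMIs were seen in 47 of the 50 WT1/IGFBP5 cells of the smaller cluster, 30 of the 68 others there and 14 of the 211 others in the larger cluster. The rule thus took the part of a WT1-positive cluster that was low in actins, and the other part sat in the comparison group. At a lower resolution (0.5), both collagen-high clusters were joined as 1.

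Because of this, levels were also set beside both kinds of other cells. The clusters were made from 1994 variable genes, which could include any but the 6, so that these values describe the clusters and test nothing. COL3A1 stood at 1118 CPM in the WT1/IGFBP5 cells of the smaller cluster, 795 CPM in the other cells of that cluster and 236 CPM in the others of the larger cluster. The WT1/IGFBP5 cells were thus 1.41-fold (1.26 to 1.57) above their cluster mates and 4.73-fold (4.22 to 5.31) above the larger cluster. The cluster mates were thus closer to the WT1/IGFBP5 cells than to the larger cluster in type III collagen. ACTA2 was 183, 1083 and 1478 CPM in the same order, but it was among the values that chose the cells, so nothing is read from it. Median depths were 11284, 11401.5 and 10531 UMIs.

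**Figure D2:**
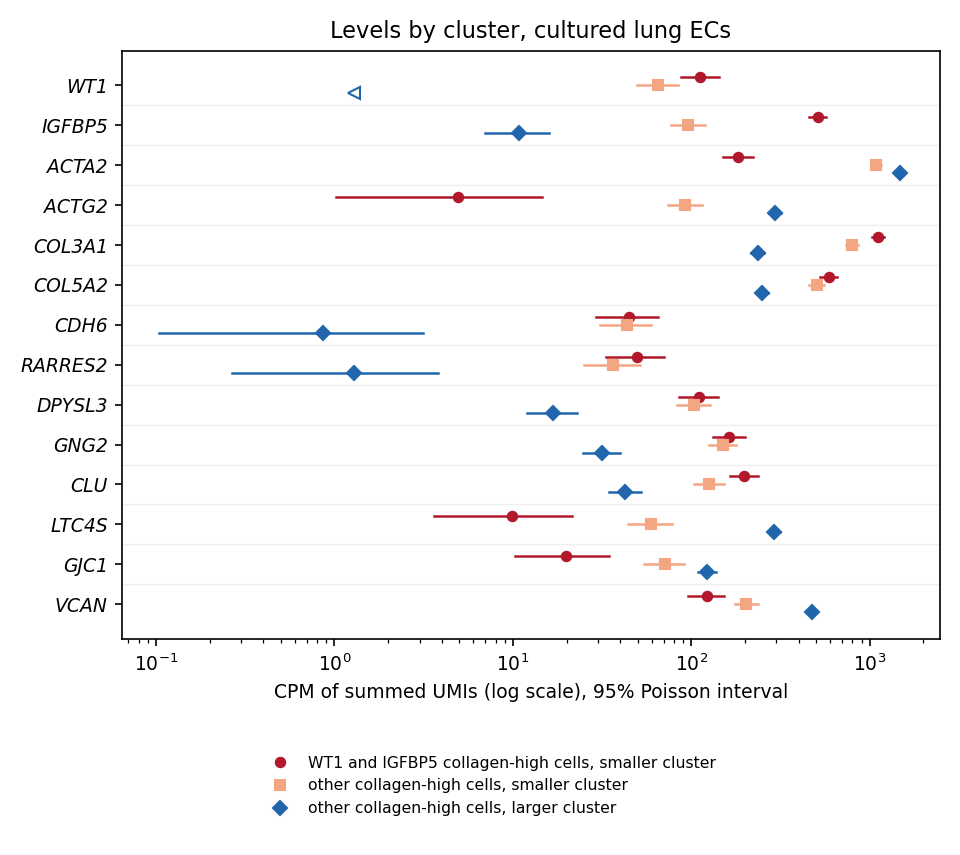
CPM of summed UMIs (log axis, with 95% Poisson intervals) of 14 genes in the WT1/IGFBP5 cells of the smaller cluster (n = 50), the other collagen-high cells of that cluster (n = 68) and those of the larger cluster (n = 211). The open triangle marks the limit of 1.30 CPM for 0 WT1 UMIs; CDH6, RARRES2, DPYSL3 and GNG2 were alike in the first 2 groups and low in the last.

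Across all genes with at least 20 CPM in 1 of the 2 groups, 106 of 5836 (1.82%) were at least 2-fold higher in the WT1/IGFBP5 cells than in the other collagen-high cells, and 166 (2.84%) were at least 2-fold lower. The median log2 ratio was -0.05. Against the collagen-low cells, 394 of 6082 genes (6.48%) were at least 2-fold higher and 675 (11.1%) at least 2-fold lower, with a median of -0.07. The WT1/IGFBP5 cells thus resembled the other collagen-high cells in most genes, and the differences named here are a small share. This comparison group included the 68 cluster mates. Against the 211 others of the larger cluster alone, 209 of 5859 genes were at least 2-fold higher and 223 at least 2-fold lower. The main counts of 106 and 166 rest on few UMIs for many genes, and grew to 281 and 371 when each cell was thinned. Counts called in the gene lists that follow are to be read beside the 1.82 and 2.84% over all genes. Most lists are too short for that comparison.

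Of 6 fibrillar collagens compared, COL3A1 and COL5A3 were at least 2-fold higher and 0 lower, beside 1.82% higher and 2.84% lower over all genes. A count of 2 in 6 is too small to set against these shares. The median log2 ratio of 0.72 includes the rule genes COL1A1 (7286 against 4909 CPM) and COL1A2 (7364 against 5514 CPM). The 11 listed genes summed to 16525 CPM in the WT1/IGFBP5 cells, 11247 CPM in the others and 107 CPM in the collagen-low cells. In both collagen-high groups most of the sum came from these rule genes, so nothing is read from it. COL5A3, a chain of the type V collagen that regulates fibril diameter, had 0, 1 and 5 UMIs in the lowest, median and highest WT1/IGFBP5 cell and a median of 0 in the others. Its level was 113 CPM against 52.1, 2.16-fold higher (1.62 to 2.87), and 0.153 CPM in the collagen-low cells. COL5A2, another type V chain, lies next to COL3A1 on chromosome 15 (93611856 to 93981131, after COL3A1 at 93556914 to 93595678). It had 0, 6 and 18 UMIs per cell against a median of 3 and stood at 578 CPM against 317, 1.82-fold higher (1.61 to 2.05). The neighbours thus shared a direction, while COL5A1, at 84.2 against 67.3 CPM, differed by 1.25-fold (0.908 to 1.69).

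Genes that process and bind fibrillar collagen showed a mixed picture. Of 23 collagen processing genes compared, PCOLCE, which enhances the trimming of procollagen, was at least 2-fold higher (36.5 against 13.7 CPM, 2.68-fold, 1.54 to 4.53). P4HA3, a prolyl hydroxylase subunit, was the 1 lower gene (12.7 against 26.1 CPM), and the median log2 ratio was 0.14. SPARC, a collagen-binding glycoprotein, had 0, 11 and 32 UMIs per WT1/IGFBP5 cell against a median of 6 and stood at 999 against 613 CPM. The lysyl hydroxylase PLOD2 was at 65.1 against 32.9 CPM, whereas the crosslinking enzyme LOXL1 was lower, at 151 against 278 CPM. Among small leucine-rich proteoglycans, 1 of 2 compared was higher, FMOD (fibromodulin), which binds type I collagen and steers its crosslinking. FMOD had 0, 3 and 15 UMIs per cell against a median of 1, and 348 against 161 CPM, 2.16-fold higher (1.84 to 2.54), with 0.784 CPM in the collagen-low cells. BGN (biglycan), the other gene compared, was 1.86-fold lower, at 510 against 950 CPM, so that the list's median log2 ratio was 0.11. Its summed level was 880 CPM in the WT1/IGFBP5 cells and 1122 CPM in the others.

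Chains of beaded filaments and basement membranes did not share the higher level of COL3A1 and COL5A3. Of 9 other collagens compared, 0 were at least 2-fold higher and 2 were lower, with a median log2 ratio of -0.40 and sums of 1734 and 2424 CPM. COL6A1, a chain of the beaded filaments of type VI collagen, had 0, 3 and 27 UMIs per cell against a median of 8. It stood at 418 against 861 CPM, 2.06-fold lower, and COL6A2, its partner chain, at 14.3 against 35.1 CPM. COL18A1 and COL15A1, whose products sit in basement membrane zones, were at 470 against 429 CPM and at 249 against 328 CPM. COL6A3 was at 30.2 against 31.3 CPM, so that the low level was not shared by all type VI chains.

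Other matrix genes differed in both directions. VCAN (versican), a large hyaluronan-binding proteoglycan, had 0, 1 and 6 UMIs in the lowest, median and highest WT1/IGFBP5 cell against 0, 4 and 16 in the others. Its level was 124 CPM (97.9 to 155) against 396 CPM, 3.19-fold lower. Among 17 glycoprotein genes compared, VCAN and NID2 (nidogen, 65.1 against 133 CPM) were lower and 3 were higher. The list's median log2 ratio was -0.12, and over all genes 1.82% were higher and 2.84% lower. CTHRC1, a secreted protein of collagen-producing fibroblasts, was at 54.0 against 17.7 CPM, 3.05-fold higher (1.94 to 4.75), and THBS2, chosen after its values were seen, at 34.9 against 11.5 CPM. The last, MGP, an inhibitor of calcification, rested on 1 cell, which held 98.9% of its 279 UMIs. The most abundant, THBS1, a matricellular inhibitor of vessel growth, was at 1941 against 2491 CPM. Among 8 elastic fibre genes compared, 1 was higher and 3 were lower, with a median log2 ratio of -0.42. FBLN5, needed for elastic fibre assembly, had 13 UMIs in the WT1/IGFBP5 cells and stood at 20.6 against 100 CPM, 4.86-fold lower, with a ratio of 0.206 that became 0.0423 without cells of either group with over 5 endothelial UMIs. LTBP2 was at 85.8 against 182 CPM and EMILIN1 at 22.2 against 45.3 CPM, while FBLN2, a fibulin of basement membranes and valve tissue, was at 92.1 against 41.0 CPM, 2.25-fold higher. In the smaller cluster, FBLN2 in the WT1/IGFBP5 cells was close to their cluster mates, at 1.07-fold (0.745 to 1.52). It was 3.96-fold (2.69 to 5.85) above the others of the larger cluster. FBN1, the main microfibril gene, was at 145 against 162 CPM.

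**Figure D3:**
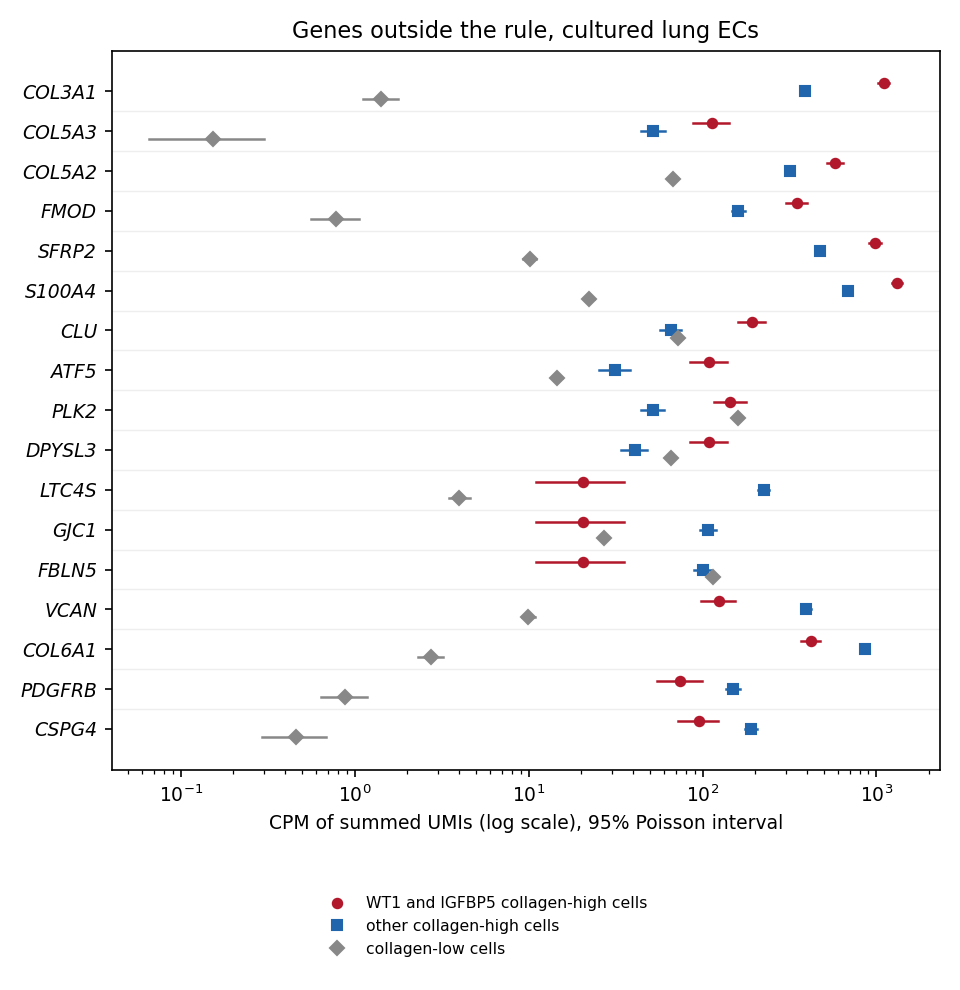
CPM of summed UMIs (log axis, with 95% Poisson intervals) of 17 genes outside the rule in the 53 WT1/IGFBP5 cells, the 282 other collagen-high cells and the 5347 collagen-low cells. COL3A1 to DPYSL3 were higher in the WT1/IGFBP5 cells than in the other collagen-high cells (1099 against 386 CPM for COL3A1) and LTC4S to CSPG4 were lower (20.6 against 224 CPM for LTC4S).

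Some contractile and pericyte genes outside the rule were lower as well. The cells were chosen for few ACTA2 and ACTG2 UMIs, and whether these lower levels followed from that choice was not tested. Of 12 smooth muscle markers compared, 0 were higher and 4 lower, 2 of them the rule genes ACTA2 and ACTG2. Over all genes, 1.82% were higher and 2.84% lower. The list's median log2 ratio, which includes these 2 rule genes, was -0.69. CNN1 (calponin), which binds actin in smooth muscle, had 4 UMIs in the WT1/IGFBP5 cells and stood at 6.35 against 70.4 CPM, 11.09-fold lower (ratio 0.0902, 0.0244 to 0.234). LMOD1, an actin nucleator of smooth muscle chosen after its values were seen, had 0 UMIs against 25.8 CPM, 5.41-fold lower with 0 UMIs taken as 3 counts (upper limit of the ratio 0.233). The pattern did not extend to all actin-binding genes, since CALD1 was at 1515 against 1025 CPM and TPM2 at 1385 against 1249 CPM. The list summed to 6286 CPM against 8908 and 3671 CPM in the collagen-low cells, and CALD1 was its most abundant gene. These sums include the rule genes ACTA2, at 176 against 1356 CPM, and ACTG2, at 4.76 against 238 CPM. MYH11, MYOCD and SYNPO2 were also at 0 UMIs but were under 20 CPM in both groups and were not compared. Of 2 pericyte markers compared, PDGFRB, the receptor for PDGF-B, was 2.01-fold lower (74.6 against 150 CPM) and CSPG4 (NG2) 1.99-fold lower (95.3 against 189 CPM). Both were still far above the collagen-low cells, at 0.880 and 0.459 CPM. The pericyte markers RGS5, KCNJ8, ABCC9, HIGD1B, GJA4 and LAMC3 were at 0 UMIs in the WT1/IGFBP5 cells. They were also under 20 CPM in the other collagen-high cells and were not compared, so nothing is read from these zeros. The list summed to 192, 366 and 23.0 CPM in WT1/IGFBP5, other collagen-high and collagen-low cells.

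LTC4S was among the genes with the lowest ratio outside the rule. It encodes leukotriene C4 synthase, which joins glutathione to leukotriene A4 and is best known from mast cells and other myeloid cells. The WT1/IGFBP5 cells had 0, 0 and 5 UMIs in the lowest, median and highest cell, against 0, 2 and 13 in the others. The level was 20.6 CPM (11.0 to 35.3) against 224 CPM, 10.9-fold lower (ratio 0.0920, 0.0488 to 0.158), and 3.998 CPM in the collagen-low cells. An LTC4S UMI was seen in 11.3% of WT1/IGFBP5 cells, 71.3% of the others and 3.18% of collagen-low cells (8.16, 60.8 and 2.10% after thinning; median depths 11271, 10658.5 and 9371 UMIs). The 30 other collagen-high cells with WT1 UMIs had 5.64 CPM and the 252 without had 251 CPM, although ACTA2 was 1547 and 1333 CPM in these groups. LTC4S was thus low in cells with WT1 whether or not they had actins, and the split by WT1 was made after its values were seen.

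Other genes named for a lower level ranged from 2.06-fold to 5.20-fold lower. GJC1 (connexin 45), a gap junction subunit of mural cells, was at 20.6 against 107 CPM, 5.20-fold lower (ratio 0.192, 0.101 to 0.333). RNF149, a membrane ubiquitin ligase, was at 38.1 against 141 CPM, and SEPTIN5, a cytoskeletal GTPase, at 39.7 against 113 CPM. SDC2, a cell surface proteoglycan, was 2.54-fold lower at 73.1 against 185 CPM. FAM129A, MFGE8, CLTB, ENTPD3 and ARNT were at 60.3, 46.1, 87.3, 63.5 and 57.2 CPM, and 2.66, 2.40, 2.35, 2.25 and 2.20-fold lower. These encode a stress-linked kinase substrate, a secreted glycoprotein that bridges to integrins, a clathrin light chain, an ectonucleotidase and the partner of hypoxia-inducible factors. Under 16 alternative settings, the ratio ranged from 0.252 to 0.629 for MFGE8 and from 0.388 to 0.651 for ARNT. Neither gene was thus at least 2-fold lower under all of them.

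Several genes named for a higher level encode secreted or surface proteins. SFRP2, a secreted modulator of WNT signalling, had 0, 10 and 44 UMIs in the lowest, median and highest WT1/IGFBP5 cell against 0, 4 and 45 in the others. Its level was 980 CPM (904 to 1060) against 473 CPM, 2.07-fold higher (1.88 to 2.28), and 10.1 CPM in the collagen-low cells. Of 10 WNT genes compared, SFRP2 and the antagonist DKK2 (27.0 against 13.03 CPM) were higher and 0 lower, with a median log2 ratio of 0.13. Over all genes, 1.82% were higher and 2.84% lower. Against the cluster mates, SFRP2 was at 1.74-fold (1.54 to 1.97) and DKK2 at 1.07-fold (0.535 to 2.09). S100A4, a calcium-binding protein often used to mark fibroblasts, had 0, 13 and 59 UMIs per cell against a median of 5, and 1312 against 689 CPM, 1.90-fold higher. CLU (clusterin), a secreted chaperone, had 0, 1 and 12 UMIs per cell against a median of 0. It stood at 192 against 65.5 CPM, 2.93-fold higher (2.33 to 3.69), with 72.3 CPM in the collagen-low cells, so that it was the other collagen-high cells that lay near the rest of the library. ITGB3, an integrin subunit that binds vitronectin, was at 156 against 78.2 CPM, and ITM2C, a membrane protein, at 137 against 73.9 CPM. Against the cluster mates these were at 1.18-fold (0.891 to 1.55) and 1.29-fold (0.947 to 1.75).

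Inside the cell, ATF5, a transcription factor of stress responses, was at 110 CPM (85.3 to 139) against 31.3 CPM, 3.50-fold higher (2.54 to 4.80), with 0, 0 and 9 UMIs per cell. It was also 3.02-fold (1.97 to 4.72) above the other cells of the smaller cluster, and was close to equal, at 1.06-fold, when cells were chosen by WT1 alone. PLK2, a serum-inducible kinase, was at 145 against 51.8 CPM (2.79-fold, 2.14 to 3.62), and DPYSL3, a cytoskeletal protein of migrating cells, at 110 against 40.7 CPM (2.70-fold, 1.98 to 3.64). In the cluster view, both were higher across the smaller cluster than in the larger one, with 145, 109 and 31.1 CPM of PLK2 and 111, 103 and 16.8 CPM of DPYSL3 in WT1/IGFBP5 cells, cluster mates and the larger cluster. Neither was confined to the smaller cluster, since PLK2 was at 160.5 CPM and DPYSL3 at 66.3 CPM in the collagen-low cells. Endothelial markers, with 629, 1096 and 208 CPM, and macrophage markers, with 69.4, 94.96 and 9.50 CPM, were likewise lowest in the larger cluster, and their part in the result was not tested. DPYSL3 was 1.13-fold higher with cells chosen by WT1 alone. SNX10, a sorting nexin, was 1.87-fold higher, at 124 against 66.4 CPM, and C12orf45 was at 137 against 75.4 CPM.

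Of 61 listed transcription factors of the mesenchyme among the features, 16 were compared, 1 was higher, 1 was lower, and the median log2 ratio was 0.06. Counts of 1 in 16 are too small to set against the 1.82 and 2.84% over all genes. SNAI1, a repressor of epithelial genes, was at 31.8 against 7.76 CPM, 4.09-fold higher (2.16 to 7.68), from 20 UMIs. PRRX1, a homeobox gene of limb and lung mesenchyme, was at 11.12 against 54.3 CPM, 4.89-fold lower (ratio 0.205, 0.0811 to 0.431), while its relative PRRX2 was at 30.2 against 46.5 CPM. FOXS1, the most abundant, was at 178 against 213 CPM, and TBX3, a T-box repressor, at 60.3 against 35.7 CPM. Of 5 retinoid genes compared, 2 were higher and 0 lower, with a median log2 ratio of 0.13. RARRES2, a retinoid-responsive gene for the chemoattractant chemerin, was at 47.6 against 10.9 CPM, 4.39-fold higher (2.60 to 7.35). It had 3 UMIs in all 211 others of the larger cluster, for a ratio of 38.3 (11.9 to 196). Within the smaller cluster, RARRES2 in the WT1/IGFBP5 cells was close to their cluster mates, at 1.35-fold (0.794 to 2.30). DHRS3, which reduces retinal, was at 41.3 against 12.1 CPM, and 143 CPM in the collagen-low cells. Against the cluster mates, DHRS3 was at 1.03-fold (0.551 to 1.90). ALDH1A3, which makes retinoic acid, was the most abundant retinoid gene and was lower, at 49.2 against 86.0 CPM. Of the WT1 partners and relatives, 5 were compared, 2 were higher and 0 lower, the median log2 ratio was -0.25, and PDGFA was the most abundant at 167 against 215 CPM. The 2 were WT1, which chose the cells, and AREG, of which 1 cell held 43.4% of UMIs.

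The insulin-like growth factor axis did not follow IGFBP5. Of 8 genes compared, IGFBP5 alone was at least 2-fold higher and 2 were lower, with a median log2 ratio of -0.27. IGFBP7, the most abundant, had 0, 6 and 54 UMIs per WT1/IGFBP5 cell against a median of 12, and 719 against 1224 CPM, 1.70-fold lower. IGFBP3, a carrier of the growth factors, was at 11.12 against 39.4 CPM, 3.55-fold lower (ratio 0.282, 0.111 to 0.598), and IGFBP6 at 289 against 219 CPM. PAPPA, a protease known to cleave IGFBP5 and IGFBP4, was at 88.9 against 179 CPM, 2.02-fold lower. Its lower level was shared by the smaller cluster. Against the cluster mates, PAPPA was at a ratio of 0.914 (0.628 to 1.32). The mates were at a ratio of 0.420 (0.327 to 0.533) to the others of the larger cluster. IGFBP4 had 0 UMIs in all collagen-high cells. The list summed to 1783, 1858 and 1364 CPM in WT1/IGFBP5, other collagen-high and collagen-low cells. Of these sums, IGFBP5, which chose the cells, gave 499, 33.8 and 2.22 CPM.

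Of 20 growth factors compared, 5 were higher and 1 lower, beside 1.82% higher and 2.84% lower over all genes. The list's median log2 ratio was 0.09. ANGPT2, a vessel-destabilising ligand of the TEK receptor, had 0 UMIs in all 53 WT1/IGFBP5 cells against 40.7 CPM and a highest cell of 5 UMIs in the others. With 0 UMIs taken as 3 counts this was 8.53-fold lower, and the upper limit of the counting interval of the ratio was 0.146. ANGPTL2 was at 36.5 against 10.6 CPM, 3.46-fold higher (1.95 to 6.05), and SLIT3, a guidance ligand for ROBO receptors, at 25.4 against 7.76 CPM, 3.28-fold higher (1.63 to 6.38). MDK (midkine), the most abundant, was at 251 against 114 CPM and 642 CPM in the collagen-low cells. Of 13 receptors compared, 0 were higher and 2 lower, PDGFRB and FGFR1 (15.9 against 34.4 CPM), with a median log2 ratio of -0.07 and IL6ST as the most abundant, at 130 against 102 CPM. In the TGF-β and BMP list, 27 were compared, 0 were higher and 2 lower, among them the ligand gene TGFB3 (30.2 against 65.8 CPM), with a median log2 ratio of -0.08. ID1, a BMP target that blocks basic helix-loop-helix factors, was 1.94-fold higher, at 415 against 213 CPM, with 0, 5 and 20 UMIs per cell against a median of 1. Against the cluster mates, ID1 was at 1.14-fold (0.962 to 1.34). ID3, the most abundant gene of that list, was at 516 against 491 CPM, so the ID genes did not move as a set.

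Of 25 adhesion genes compared, 3 were higher and 2 lower, beside 1.82% higher and 2.84% lower over all genes. The list's median log2 ratio was 0.01. CDH6, a cadherin of developing kidney, was at 46.1 against 12.7 CPM, 3.62-fold higher (2.17 to 5.97), and PDPN (podoplanin), a mucin-type glycoprotein, at 22.2 against 7.14 CPM, 3.12-fold higher (1.48 to 6.32). NCAM1 was at 92.1 against 36.3 CPM. Within the smaller cluster, CDH6 was at 44.6 CPM in WT1/IGFBP5 cells and 43.5 CPM in their cluster mates, against 2 UMIs in the others of the larger cluster (ratio 51.6, 12.98 to 448). PDPN had 0 UMIs in the 211 others of the larger cluster. With 0 UMIs taken as 3 counts over the group, PDPN was 17.9-fold lower there than in the WT1/IGFBP5 cells of the smaller cluster. The lower limit of the counting interval was 12.7-fold. Both genes were thus found across the smaller cluster, but CDH6 was at 43.5 CPM in the collagen-low cells too, while PDPN was at 0.153 CPM there. The endothelial markers were also higher in the smaller cluster, at 629 and 1096 CPM against 208 CPM, and their part was not tested. ITGA1, a collagen receptor subunit, was at 9.53 against 47.5 CPM, 4.98-fold lower, and ITGB1, the most abundant, at 1055 against 1365 CPM. Of 15 matrix protease genes compared, ADAMTS9, which cleaves versican, was 5.44-fold higher (2.58 to 11.5), at 27.0 against 4.97 CPM. ADAM19 was at 25.4 against 58.7 CPM and ADAMTS12 had 3 UMIs (4.76 against 23.3 CPM, ratio 0.205, 0.0413 to 0.622). The list's median log2 ratio was 0.09, and its most abundant gene, the inhibitor TIMP1, was at 926 against 1337 CPM. Of 10 complement and chemokine genes compared, CLU and IL33 (47.6 against 17.4 CPM, and 94.9 CPM in the collagen-low cells) were higher. The prostaglandin synthase PTGS2 was lower (22.2 against 68.0 CPM), and the list's median log2 ratio was -0.08. Against the cluster mates, CLU was at 1.57-fold (1.21 to 2.06) and IL33 at 1.11-fold (0.614 to 1.97). CCL2, a monocyte chemokine, was the most abundant, at 662 against 975 CPM.

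Markers of other cell types were looked up to check the name. Of 19 mesothelial markers, 13 were among the features, and MSLN, UPK3B, ITLN1, KRT19, ANXA8 and CPA4 were not. In the WT1/IGFBP5 cells 10 of the 13 were at 0 UMIs, including the defining KRT8, KRT18, CALB2, BNC1 and LRRN4. WT1, which chose the cells, was the 1 gene of the list that could be compared and alone gave its median log2 ratio of 2.61. The list summed to 129, 35.7 and 29.1 CPM, of which WT1 gave 108, 17.7 and 0.0957 CPM. KRT7 was at 15.9 against 11.5 CPM and 24.4 CPM in the collagen-low cells. The cells thus had WT1 without most mesothelial markers that could be read, and KRT7 was not confined to them. Fibroblast markers were mixed. Of 7 adventitial markers compared, 3 were higher (SFRP2, SERPINF1 and CD34) and 0 lower, beside 1.82% higher and 2.84% lower over all genes. The list had a median log2 ratio of 0.44 and sums of 1709, 1062 and 493 CPM. SERPINF1 was at 65.1 against 24.2 CPM and CD34 at 28.6 against 13.96 CPM, but the collagen-low cells had 58.0 and 99.0 CPM, and the part of endothelial RNA was not tested. The defining PI16, LUM, SCARA5 and DPT were at 0 UMIs, and DCN, chosen after its values were seen, had 7 UMIs (11.12 against 1.24 CPM, ratio 8.96, 2.28 to 41.7). Of 5 alveolar fibroblast markers compared, RARRES2 was higher and 0 were lower, with a median log2 ratio of 0.24. The list summed to 337, 330 and 551 CPM, RGCC was the most abundant, and PDGFRA, FGF10, SCN7A and A2M were at 0 UMIs. For epithelial markers, 0 could be compared, 10 of 13 were at 0 UMIs, and NAPSA led with 4 UMIs. The lymphatic list had PDPN alone above 0, with a log2 ratio of 1.64 and sums of 22.2, 7.14 and 0.976 CPM.

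Endothelial transcripts were present in part of the cells. Of 10 endothelial markers compared, SOX18 (22.2 against 5.59 CPM) and EMCN (23.8 against 7.76 CPM) were at least 2-fold higher and 0 lower. The list's median log2 ratio was 0.57, and over all genes 1.82% were higher and 2.84% lower. ERG was at 20.6 against 35.1 CPM and FLT1 at 36.5 against 49.3 CPM, so the markers did not all share a direction. The 16 markers summed to 645 CPM in the WT1/IGFBP5 cells, 471 CPM in the other collagen-high cells and 3661 CPM in the collagen-low cells. The most abundant was PECAM1, at 240, 148 and 1590 CPM, and KDR, VWF and SOX17 were at 0 UMIs. A WT1/IGFBP5 cell had a median of 2 and at most 63 UMIs of the list, and 10 of the 53 had more than 5, with a median depth of 18866.5 UMIs against 11036 in the other 43. The macrophage list moved likewise through LAPTM5, its 1 compared gene, which was 2.42-fold higher at 71.5 against 29.5 CPM and stood at 351 CPM in the collagen-low cells. PTPRC, CD68, CSF1R and 10 more of its 16 genes were at 0 UMIs, and it summed to 74.6, 33.5 and 373 CPM.

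Several genes named for a higher level were also abundant in collagen-low cells. Among them, PLK2 was at 160.5 CPM and ID1 at 300.5 CPM there. AREG, an EGF receptor ligand, was at 121 against 49.7 CPM and 423 CPM in the collagen-low cells, and 1 cell held 43.4% of its UMIs. PPP1R14A, an inhibitor of myosin phosphatase, was at 110 against 47.5 CPM and 475 CPM in the collagen-low cells, with 49.3% in 1 cell. Leaving out the 10 WT1/IGFBP5 cells with more than 5 endothelial UMIs reversed both, to ratios of 0.579 and 0.233, but this kept 37 such cells in the comparison group. With such cells left out of both groups the ratios were 1.89 and 0.812. In the remaining 43 WT1/IGFBP5 cells AREG was at 28.8 CPM and PPP1R14A at 11.06 CPM, against 15.2 and 13.6 CPM in the other collagen-high cells with up to 5. MDK and GNG2, a G protein subunit, kept higher levels there, at 206 against 72.0 CPM and 164 against 47.5 CPM, and COL3A1 was at 1235 against 439 CPM. In the smaller cluster, with no cells left out, MDK and GNG2 in the WT1/IGFBP5 cells were close to their cluster mates. The ratios were 0.942 (0.763 to 1.16) and 1.09 (0.832 to 1.43). The part of endothelial RNA in the levels over all cells was not tested.

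In the lists of proliferation, stress and lipid genes, the shares past 2-fold did not stand out from the 1.82% higher and 2.84% lower over all genes. Of 13 S phase genes compared, 0 were higher and 1 lower, MCM2 (14.3 against 38.2 CPM), with a median log2 ratio of -0.39 and MCM7 most abundant at 114 against 141 CPM. Of 20 G2M genes compared, 0 were higher and 1 lower, AURKB (6.35 against 26.4 CPM), with a median log2 ratio of -0.15 and CENPF at 189 against 183 CPM. TOP2A, a marker of dividing cells, had UMIs in 23 of the 53 WT1/IGFBP5 cells and 137 of the 282 others. In the lists of cycle arrest (11 compared, median log2 ratio 0.05), early stress (10, -0.08) and lipid and steroid genes (8, -0.40), 0 genes were at least 2-fold higher or lower. Their most abundant genes were CCND1 at 272 against 263 CPM, HSPA5 at 734 against 752 CPM and FABP5 at 133 against 175 CPM.

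The WT1/IGFBP5 cells varied among themselves. The 32 with WT1 UMIs and the 21 without had 1122 and 1065 CPM of COL3A1, 507 and 487 CPM of IGFBP5 and 175 and 178 CPM of ACTA2, at median depths of 11069 and 12063 UMIs. Of these, IGFBP5 and ACTA2 were among the values that chose the cells, and COL3A1 was not. The share of WT1/IGFBP5 cells with a WT1 UMI fell from 60.4 to 38.8% on thinning, so this split depends on depth. The 2 sets differed in CLU (244 and 115 CPM), FMOD (432 and 222 CPM) and LTC4S (7.96 and 39.6 CPM). These genes were picked from many, and the LTC4S values rest on few UMIs in both sets. PECAM1 was at 159 CPM in the first and 360 CPM in the second, and the part of endothelial RNA in these values was not tested. When cells were ordered by how far IGFBP5 plus WT1 exceeded the actins, COL3A1 went from 275 CPM in the 125 collagen-high cells that fell short by 10 UMIs or more, through 471 CPM in the 129 that fell short by fewer and 622 CPM in the 28 with equal sums, to 910 CPM in the 28 WT1/IGFBP5 cells with an excess of 1 to 4 and 1296 CPM in the 25 with 5 or more. S100A4 followed the same order, at 569, 756, 1088, 1122 and 1510 CPM. LTC4S was at 242, 215 and 161 CPM outside the rule and at 28.0 and 12.96 CPM inside it, so this gene changed more abruptly at the threshold. The order uses the values that chose the cells and is a description.

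Set against the collagen-low cells, the genes named for the highest folds were COL3A1 (776-fold higher), COL5A3 (737-fold), FMOD (443-fold), COL15A1 (241-fold), COL6A1 (153-fold), ADAM12 (132-fold), SFRP2 (96.6-fold), PEG10 (82.8-fold), CREB3L1 (79.6-fold) and S100A4 (58.6-fold). The rule used collagen for this contrast, so nothing is read from these values. ADAM12, a metalloprotease of activated mesenchyme, PEG10, a gene derived from a retrotransposon, and CREB3L1, a factor that drives collagen genes, were close to the other collagen-high cells, at 116 against 109 CPM, 600 against 731 CPM and 222 against 197 CPM. These 3 genes thus did not set the WT1/IGFBP5 cells apart from the other collagen-high cells.

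The aorta library gave almost no such cells. Within the same limits 18 of its 244 cells were collagen-high, with a median of 12734.5 UMIs, and 0 met the rule, which allows a share of up to 18.5%. The median aorta cell had 6142 detected genes, beyond the upper limit, and without the upper limit 1 of 159 collagen-high aorta cells met the rule (0.629%, 0.0159 to 3.45%). These 159 cells had a median of 62487 UMIs, far deeper than the lung cells. Their pooled levels were 1.10 CPM of WT1, 6.21 CPM of IGFBP5, 378 CPM of COL3A1, 244 CPM of LTC4S and 391 CPM of VCAN. The other collagen-high lung cells had 17.7, 33.8, 386, 224 and 396 CPM of these genes. Further genes differed from them in both directions, with 103 against 17.7 CPM of CTHRC1, 267 against 161 CPM of FMOD, 584 against 861 CPM of COL6A1 and 14.1 against 52.1 CPM of COL5A3, genes chosen after their values were seen. With 1 library each, tissue and library cannot be told apart.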

How the data were processed

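Droplet-based scRNA-seq libraries of cultured aorta and lung ECs, 1 per tissue, were used. The authors deposited counts, the UMIs per gene and cell from Cell Ranger 3.0.2 on Sscrofa11.1, per the file headers and methods, for barcodes called as cells and without normalization. No further limits had been applied, since cells beyond them were present. The lung library held 57213236 UMIs in 5946 cells and the aorta library 46080859 UMIs in 1185 cells. Of 22804 features, 7821 had only an identifier and 1051 of these took a symbol from a table of gene names. Gene places came from RefSeq by symbol and were found for 143 of 146 named genes.

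Cells and groups were made as stated in the results. UMIs were summed over a group and given as CPM with exact Poisson intervals. Ratios had exact conditional intervals and shares Clopper-Pearson intervals, all at 95%. Genes with 20 CPM or more in 1 group were compared at 2-fold, a group at 0 UMIs was set at 3 counts, and no test was made. Thinning was to 5900 UMIs per cell, which left out 4 WT1/IGFBP5, 17 other collagen-high and 540 collagen-low cells. Clustering used logs of counts scaled to 10000 UMIs per cell, the 1994 most variable genes, 20 principal components, 15 neighbours and Leiden at resolution 1. No doublet caller was run. Python 3.11.15, numpy 2.4.6, pandas 2.3.3, scipy 1.17.1, scanpy 1.11.5 and matplotlib 3.10.9 were used, and the code was tested on simulated data.

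Named genes were the 6 rule genes and COL3A1; the 20 with the highest and the 15 with the lowest fold against the other collagen-high cells and the 10 with the highest against the collagen-low cells, among genes that reached 100 CPM and 25% of cells in the higher group; and for each of 31 lists the most abundant gene and the 2 with the largest fold each way. Markers at 0 UMIs and further list genes were named after their values were seen. The members and the lists were chosen with earlier results of these data known. Alternatives changed the rule, the limits on cells, the weights of cells, the thresholds, the comparison group and the clustering.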

Additional observations from a re-analysis of the deposited data

Results flagged for a closer look

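Lung cells with 5000 or more detected genes lay outside the limits on cells and were not used in the comparisons. Among them, 8 were collagen-high, with 304477 UMIs in all, and held 16 UMIs of IGFBP5, a level of 52.5 CPM, which is above the 9.85 CPM that a count of 0 allows. These cells also had 4 UMIs of WT1 and 102 of COL3A1, and 2 of the 8 met the rule for WT1/IGFBP5 cells.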

How the results depend on the processing

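Of 720 fold values of 45 genes under 16 alternative settings, 601 stayed within their counting interval, 112 moved beyond it and 7 reversed. Where the rule or the limits on cells were changed, the number of cells was 46 to 55 under 6 settings. It was 25 when IGFBP5 plus WT1 had to exceed the actins by 5 UMIs and 16 with WT1 alone. Against main counts of 106 genes higher and 166 lower, the first of these gave 189 and 355 (AREG reversed to 0.561) and the second 363 and 536 (AREG 0.464, PPP1R14A 0.294). Without WT1/IGFBP5 cells with over 5 endothelial UMIs, 297 were lower, AREG was 0.579 and PPP1R14A 0.233. Without the 10% of cells with most UMIs 165 were higher, and with equal weight per cell 192. Thinned cells gave 281 and 371, a minimum of 10 CPM 240 and 358, 50 CPM 31 and 41, and 3-fold 39 and 49. Alternatives chosen after seeing the data were both groups without cells with over 5 endothelial UMIs (161 and 263, PPP1R14A 0.812), without cells whose sums differed by under 5 (221 and 371, AREG 0.718), without cells with TOP2A (233 and 365), and the larger cluster alone as comparison (209 higher). Several of these hold fewer cells or UMIs, which leaves more genes on few counts, and the cause was not tested. The fold of COL3A1 ranged from 2.60 to 4.65, of VCAN from 0.256 to 0.364 and of LTC4S from 0.0459 to 0.130. Under 3 other clusterings the smaller cluster held 49 to 50 of the 53 cells, and at resolution 0.5 it was joined with the larger one, with 51 of the 53 cells and 279 of the 282 others. No paired analysis was possible because each tissue gave 1 library, and depth limits genes under 20 CPM, since 3 UMIs in the 53 cells are 4.76 CPM.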
